A study of Mus musculus with 6 samples.

Results

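The genes described here are 37 genes of the unfolded protein response, the programme a cell uses when proteins fold poorly in the endoplasmic reticulum (ER). The list is by symbol and was drawn up with earlier results of these data known. A member was found where a probe's transcript accession mapped to its symbol, and where a gene had several probes, the one brightest on average across the arrays was used. All 37 had a probe, and all 37 were among the 13496 genes tested. The 37 fall into 5 groups by role: 4 stress sensors with the factor Xbp1, 14 chaperones and folding enzymes, 8 genes of ER-associated degradation, 4 genes of translocation and export, and 6 genes of the Atf4 branch.

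RNA came from isolated intestinal crypts of mice of mixed strain, with 3 knockout and 3 control samples and 1 one-colour array each. Knockout mice had the genotype Villin-Cre; Arid1a f/f, and control mice Arid1a f/f with no Cre named, so both groups carried the floxed Arid1a alleles. The Villin promoter drives Cre in the intestinal epithelium, so other cells in a crypt preparation would keep Arid1a. The labels give no age, sex or gut segment and do not say that each sample came from a separate animal. The p-values therefore measure the spread between these samples, which may be technical. In bulk RNA, fewer cells of a type and less RNA per cell cannot be told apart.

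The unfolded protein response has 3 ER membrane sensors. Ire1 (Ern1, and Ern2 in mucus-secreting epithelium) splices Xbp1 mRNA, Atf6 is cut to release a transcription factor, and Perk (Eif2ak3) phosphorylates eIF2alpha, which slows translation while favouring Atf4. Xbp1 and Atf6 are known to induce chaperones, folding enzymes, degradation and export genes. Atf4 induces the stress factor Ddit3, amino acid genes and the phosphatase subunit Ppp1r15a, and other eIF2alpha kinases feed into it without ER stress. In the intestine, the secretory Paneth and goblet cells depend on this response.

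Levels are log2 processed signals minus the 75th percentile of the array's probes. A level of 0 is therefore that percentile, and levels of different genes cannot be compared because probes differ in brightness. Differences are knockout minus control on the same log2 scale, from limma fitted over all 13496 genes. Adjusted p-values are Benjamini-Hochberg values over all of these, with the threshold at 0.05, two-sided.

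Arid1a itself was at 2.20, 2.07 and 2.51 on knockout arrays 1 to 3, against 3.71, 3.47 and 4.01 on control arrays 1 to 3. It fell by 1.47 ± 0.21 (SE, n = 3 each; limma adjusted p = 0.00733). Whether its single probe lies in the deleted stretch is not stated in the labels or files. For knockout 2 and control 3 the title and description contradict the source name and genotype; Arid1a in knockout 2 was below every control array and in control 3 above every knockout array. Title and description set the groups here. Of all genes tested, 982 were higher and 1029 lower at an adjusted p under 0.05. From 41.7% to 54.7% of the 56605 probes of an array were well above background by the scanner software's flag, and every probe used for a member was so on all 6 arrays.

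Of the 37 genes, 2 rose in the knockout and 0 fell, by limma at an adjusted p under 0.05, where 14.9% of all genes tested were called, 7.28% higher and 7.62% lower. The 2 that rose were Dnajb9, an ER co-chaperone that assists the chaperone Hspa5 and restrains Ire1, and Ppp1r15a (Gadd34), which brings phosphatase to eIF2alpha and so restores translation. At an unadjusted p under 0.05, 11 of the 37 were higher and 2 lower, or 13 in all, beside 16.3% higher, 18.0% lower and 34.2% in all over the genes tested. The median difference over the 37 was 0.18, beside -0.01 over all genes tested, and 24 of the 37 differences were positive. All 3 knockout arrays lay above all 3 control arrays for 12 of the 37 genes and below them for 3, beside 19.0% and 20.7% of all genes. With each array scaled to its median in place of its 75th percentile, the median of all genes was -0.26 and that of the 37 genes -0.07, and of all genes past the test 28.7% were higher, beside 48.8% on the main scale. Dnajb9 passed on that scale as well, Ppp1r15a did not (limma adjusted p = 0.0526), and Chac1 did (adjusted p = 0.0463).

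**Figure D1:**
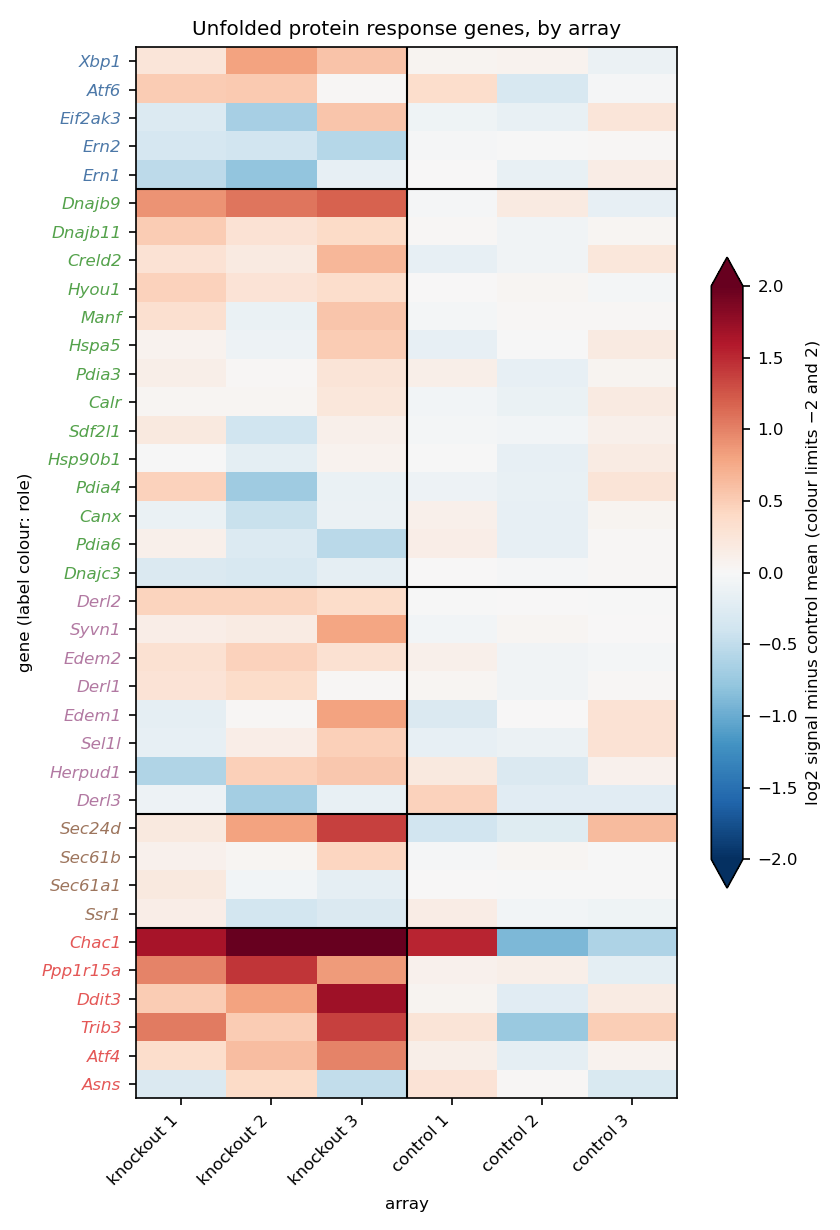
Level of each of the 37 genes on each array as the log2 signal minus the mean of the 3 control arrays, with knockout arrays 1 to 3 left of control arrays 1 to 3 and genes grouped by role (label colour). Red marks values above the control mean, with colour limits at -2 and 2; Dnajb9, Chac1, Ppp1r15a, Ddit3, Trib3 and Atf4 are red on all 3 knockout arrays, each above all 3 control arrays, and the darkest control square is Chac1 on control 1.

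The 2 genes past the test and 2 others are shown by their RefSeq promoter windows (GRCm38.p6, 250 bases before to 50 after the annotated start, 5′ to 3′ on the gene's strand). Hspa5 is shown because it encodes BiP, the main ER chaperone and usual reporter of the response, and Chac1 because it had the largest difference among the 37. Capitals mark the letters of motifs searched on both strands, described further on: ERSE in Hspa5 and CARE, read on the opposite strand, in Chac1.
Dnajb9, chr12:44210019-44210318, minus strand: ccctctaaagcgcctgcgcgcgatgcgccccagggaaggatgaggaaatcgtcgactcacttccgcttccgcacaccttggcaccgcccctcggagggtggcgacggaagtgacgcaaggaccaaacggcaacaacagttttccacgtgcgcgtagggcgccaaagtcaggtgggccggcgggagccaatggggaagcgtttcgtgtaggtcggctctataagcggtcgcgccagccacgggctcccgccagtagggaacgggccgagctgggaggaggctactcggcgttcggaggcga
Ppp1r15a, chr7:45526219-45526518, minus strand: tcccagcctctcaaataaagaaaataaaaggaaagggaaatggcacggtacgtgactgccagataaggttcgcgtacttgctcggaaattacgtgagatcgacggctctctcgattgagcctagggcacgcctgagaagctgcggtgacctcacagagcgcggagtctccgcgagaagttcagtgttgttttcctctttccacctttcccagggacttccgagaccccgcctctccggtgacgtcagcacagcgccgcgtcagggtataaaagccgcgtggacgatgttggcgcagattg
Hspa5, chr2:34771840-34772139, plus strand: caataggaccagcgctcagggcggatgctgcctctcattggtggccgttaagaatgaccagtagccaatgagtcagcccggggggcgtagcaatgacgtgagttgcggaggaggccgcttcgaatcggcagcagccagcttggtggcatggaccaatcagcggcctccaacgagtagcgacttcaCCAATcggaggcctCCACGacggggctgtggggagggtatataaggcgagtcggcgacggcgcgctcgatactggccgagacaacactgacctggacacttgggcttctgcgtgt
Chac1, chr2:119350992-119351291, plus strand: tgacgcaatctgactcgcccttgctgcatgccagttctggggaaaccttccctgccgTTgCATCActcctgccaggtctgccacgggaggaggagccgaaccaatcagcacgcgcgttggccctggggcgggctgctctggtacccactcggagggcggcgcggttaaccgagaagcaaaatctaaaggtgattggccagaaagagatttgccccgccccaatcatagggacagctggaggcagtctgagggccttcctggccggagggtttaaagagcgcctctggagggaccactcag
None of the motifs searched occurs in the windows of Dnajb9 and Ppp1r15a, which says only that these letters are not there.

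Among the sensors and Xbp1, none of 5 passed the test. Of the 5, 1 was higher and 2 lower at an unadjusted p under 0.05, beside 16.3% and 18.0% of all genes. The median difference was -0.13. Xbp1, the factor activated by Ire1 splicing, was at 6.77, 7.32 and 7.09 on the knockout arrays, against 6.58, 6.59 and 6.40 on the control arrays. All 3 knockout arrays lay above all 3 control arrays, knockout 1 by the least. The difference of 0.54 ± 0.19 (SE, n = 3 each) did not pass (limma adjusted p = 0.0997), and its 2 dimmer probes gave 0.65 and 0.61. These signals do not tell spliced from unspliced Xbp1 mRNA, because no splice-specific probe was identified here.

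Ern2, the Ire1 form of mucus-secreting epithelium, was at 3.31, 3.26 and 3.07 on the knockout arrays, against 3.62, 3.64 and 3.67 on the control arrays. The groups did not overlap, and the control arrays lay close together. The difference was -0.43 ± 0.15 (SE, n = 3 each; limma adjusted p = 0.0915), with -0.56 on the other probe. Ern1, the widely expressed Ire1, was at -1.41, -1.67 and -1.06 on the knockout arrays, against -0.89, -1.04 and -0.74 on the control arrays. Here too every knockout array was below every control array, with a difference of -0.49 ± 0.20 (SE, n = 3 each; limma adjusted p = 0.141).

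Atf6 was at 1.0, 1.02 and 0.51 on the knockout arrays and 0.84, 0.17 and 0.47 on the control arrays, a difference of 0.35 ± 0.24 (SE, n = 3 each; limma adjusted p = 0.332). The groups overlapped. Eif2ak3, the Perk kinase, gave a different picture on each of its probes. The brighter was at 1.41, 1.02 and 2.24 on the knockout arrays and 1.59, 1.54 and 1.93 on the control arrays, a difference of -0.13 ± 0.32 (SE, n = 3 each; limma adjusted p = 0.801). The dimmer was at -0.43, -0.47 and -0.30 on the knockout arrays and -1.47, -0.92 and -1.15 on the control arrays, with no overlap and a difference of 0.78. In the limma fit over all 26746 kept probes the dimmer probe had an adjusted p of 0.0505, so the direction for Eif2ak3 is not settled by its probes.

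Among the 14 chaperones and folding enzymes, Dnajb9 stood alone in passing the test, beside 7.28% of all genes called higher. Its levels were 3.56, 3.73 and 3.85 on the knockout arrays, against 2.63, 2.84 and 2.50 on the control arrays. The lowest knockout array was well above the highest control array. The difference was 1.05 ± 0.17 (SE, n = 3 each), or 2.08-fold, with a 95% interval from 0.66 to 1.45 and a limma adjusted p of 0.0112. A dimmer Dnajb9 probe gave 1.02. Without control 1 the adjusted p was 0.0573, and when the 2 arrays with contradicting labels were dropped the difference was 0.97 (adjusted p = 0.146).

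Hspa5 (BiP), whose promoter is printed above, was at 6.86, 6.69 and 7.30 on the knockout arrays, against 6.63, 6.79 and 6.97 on the control arrays. The groups overlapped, with knockout 2 below controls 2 and 3. The difference was 0.16 ± 0.21 (SE, n = 3 each; limma adjusted p = 0.626) with a 95% interval from -0.34 to 0.65. A log2 difference of 1.05, that of Dnajb9, lies outside that interval, which covers the brightest Hspa5 probe alone. The other Hspa5 probes gave 0.36 and 0.44, and with arrays scaled to their median the difference was -0.09.

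The other folding genes lay in a narrow band. Without Dnajb9, the 13 differences ran from -0.27 to 0.40 with a median of 0.10, and their 95% intervals lay within -0.86 and 0.85. Dnajb11, another Hspa5 co-chaperone, was at 5.19, 4.98 and 5.07 on the knockout arrays and 4.71, 4.62 and 4.73 on the control arrays, a difference of 0.40 ± 0.14 (SE, n = 3 each; limma adjusted p = 0.109). Its groups did not overlap, and neither did those of Hyou1, a nucleotide exchange factor for Hspa5, at 0.36 ± 0.14 (SE, n = 3 each; limma adjusted p = 0.123). The 2 dimmer Hyou1 probes gave 0.29 and 0.02.

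Dnajc3 (p58IPK), a co-chaperone that also restrains Perk, was the one folding gene with every knockout array below every control array. Its levels were 1.42, 1.40 and 1.53 on the knockout arrays and 1.72, 1.68 and 1.74 on the control arrays, a difference of -0.27 ± 0.14 (SE, n = 3 each; limma adjusted p = 0.217). The lectin chaperones Calr and Canx, which hold glycoproteins for folding, had differences of 0.10 and -0.23. The disulphide isomerases Pdia3, Pdia4 and Pdia6 had 0.13, -0.13 and -0.24, and the Hsp90 of the ER, Hsp90b1, had -0.05. Sdf2l1, which works with ER co-chaperones, had -0.03, Manf, a secreted protein induced by ER stress, 0.25, and Creld2, an ER stress-induced protein, 0.38. Their groups overlapped in every case, and their limma adjusted p-values ran from 0.218 (Creld2) to 0.932 (Sdf2l1).

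**Figure D2:**
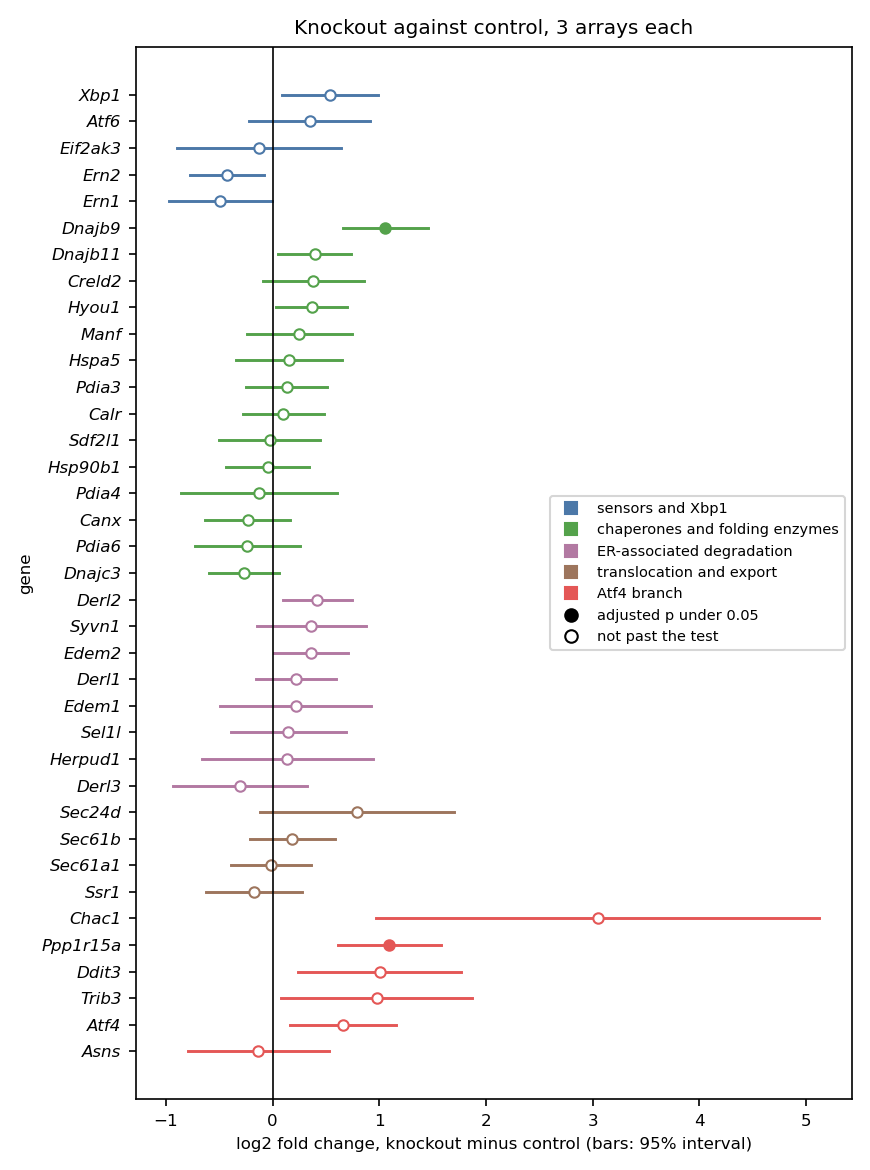
Log2 difference, knockout minus control, for each of the 37 genes with its 95% interval from limma (3 arrays per group), coloured by role; filled points passed an adjusted p under 0.05. Dnajb9 at 1.05 and Ppp1r15a at 1.09 are the filled points, and the other 13 folding genes sit between -0.27 and 0.40.

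Genes of ER-associated degradation, which carry misfolded proteins out of the ER to the proteasome, showed small differences of mostly positive sign. None of 8 passed the test, where 14.9% of all genes were called. At an unadjusted p under 0.05, 2 of the 8 were higher, beside 16.3% of all genes. The median difference was 0.22. On the scale set above, 7 of the 8 were positive, while with arrays scaled to their median Herpud1, Sel1l, Edem1 and Derl1 were negative. Derl2, a membrane channel component, was at 5.51, 5.51 and 5.43 on the knockout arrays, against 5.07, 5.08 and 5.06 on the control arrays. The groups were clearly apart and each was tight, yet the difference was only 0.42 ± 0.14 (SE, n = 3 each; limma adjusted p = 0.0842), with 0.36 on its other probe. Edem2, which helps trim mannose from misfolded glycoproteins, was at -0.61, -0.46 and -0.61 on the knockout arrays and -0.81, -0.99 and -0.96 on the control arrays, a difference of 0.36 ± 0.15 (SE, n = 3 each; limma adjusted p = 0.137). Its groups did not overlap.

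The ubiquitin ligase Syvn1 (Hrd1) was also higher on every knockout array, at 4.95, 4.97 and 5.60, against 4.76, 4.86 and 4.82 on the control arrays. Most of its difference of 0.36 ± 0.21 (SE, n = 3 each; limma adjusted p = 0.265) came from slide 2, with 0.15 within slide 1 and 0.79 within slide 2. Its partner Sel1l had 0.15, the scaffold Herpud1 0.14, Edem1, a relative of Edem2, 0.21, Derl1 0.22 and Derl3 -0.31, all with overlapping groups. Herpud1 was at 4.07, 5.15 and 5.21 on the knockout arrays and 4.88, 4.38 and 4.76 on the control arrays, so that knockout 1 was the lowest of all 6. A dimmer Sel1l probe gave 0.56 (limma adjusted p over all probes = 0.0808).

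The 4 genes of translocation and export had a median difference of 0.08 and none passed the test. At an unadjusted p under 0.05 there were 0 of 4, beside 34.2% of all genes. Sec61a1 and Sec61b, subunits of the protein-conducting channel, had -0.02 and 0.18, and Ssr1, of the complex beside that channel, had -0.18. Sec24d, a cargo-binding coat protein of export vesicles, was at 3.64, 4.24 and 4.81 on the knockout arrays and 3.05, 3.19 and 4.07 on the control arrays. Within each slide the knockout was higher, by 0.82 within slide 1 and 0.74 within slide 2, while control 3 lay above knockout 1. Its difference of 0.79 ± 0.38 (SE, n = 3 each) did not pass (limma adjusted p = 0.190) and passed with the slide as a block (adjusted p = 0.0468).

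The Atf4 branch had the largest median of the 5 groups and held the largest single difference. Of 6 genes, 1 passed the test, as higher, where 7.28% of all genes were called higher. At an unadjusted p under 0.05, 5 were higher, beside 16.3% of all genes. In the same 5 all knockout arrays lay above all control arrays, beside 19.0% of all genes. These counts are readings of the same values. The median difference was 0.99, with 0.88 within slide 1 and 0.99 within slide 2. The gene that passed, Ppp1r15a, was at 1.36, 1.81 and 1.23 on the knockout arrays, against 0.45, 0.48 and 0.18 on the control arrays. Every knockout array was clearly above every control array, and the difference was 1.09 ± 0.20 (SE, n = 3 each), or 2.14-fold, with a 95% interval from 0.61 to 1.58 (limma adjusted p = 0.0187). Leaving out control 1, 2 or 3 gave an adjusted p of 0.0675, 0.0597 or 0.0682, and leaving out knockout 2 gave 0.0508. When the 2 arrays with contradicting labels were dropped the difference was 0.83 (adjusted p = 0.156).

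Chac1, an enzyme that degrades glutathione and a target of Atf4 and Ddit3, was at 1.58, 2.97 and 4.40 on the knockout arrays, against 1.45, -0.96 and -0.69 on the control arrays. Control 1 lay just under knockout 1, and the arrays of each group were spread more widely than for any of the other Atf4 branch genes. The difference of 3.05 ± 0.87 (SE, n = 3 each), or 8.28-fold, had a 95% interval from 0.97 to 5.13 and did not pass the test (limma adjusted p = 0.0610). It was 2.03 within slide 1 and 5.09 within slide 2. Without knockout 1 the adjusted p was 0.0236.

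Ddit3 (Chop), the stress factor linked to cell death, was at 0.37, 0.66 and 1.56 on the knockout arrays, against -0.08, -0.36 and 0.02 on the control arrays. Knockout 3 stood above the others, and the groups did not overlap. The difference was 1.0 ± 0.32 (SE, n = 3 each; limma adjusted p = 0.0797). It passed with the slide as a block (adjusted p = 0.0380) and without knockout 1 (adjusted p = 0.0305).

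Trib3, a pseudokinase that Ddit3 and Atf4 induce and that restrains them in turn, was at 3.85, 3.32 and 4.18 on the knockout arrays, against 3.06, 2.06 and 3.30 on the control arrays. Knockout 2 and control 3 were nearly level, while within slides the differences were 1.02 and 0.88. The difference over all arrays was 0.98 ± 0.38 (SE, n = 3 each; limma adjusted p = 0.123). Atf4 mRNA was at 7.55, 7.81 and 8.19 on the knockout arrays, against 7.31, 7.01 and 7.27 on the control arrays. The groups did not overlap, and the difference was 0.66 ± 0.21 (SE, n = 3 each; limma adjusted p = 0.0795), with 0.77 on the other probe. With arrays scaled to their median, Ddit3, Trib3 and Atf4 differed by 0.76, 0.73 and 0.41 (limma adjusted p = 0.134, 0.247 and 0.281). Atf4 is controlled largely at translation, which arrays do not measure.

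Asns, asparagine synthetase and a standard Atf4 target, did not share this pattern. It was at 5.13, 5.80 and 4.92 on the knockout arrays and 5.69, 5.44 and 5.11 on the control arrays, with overlapping groups. The difference was -0.13 ± 0.28 (SE, n = 3 each; limma adjusted p = 0.756), and its 95% interval ran from -0.80 to 0.53. Differences between genes of the branch were not tested.

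**Figure D3:**
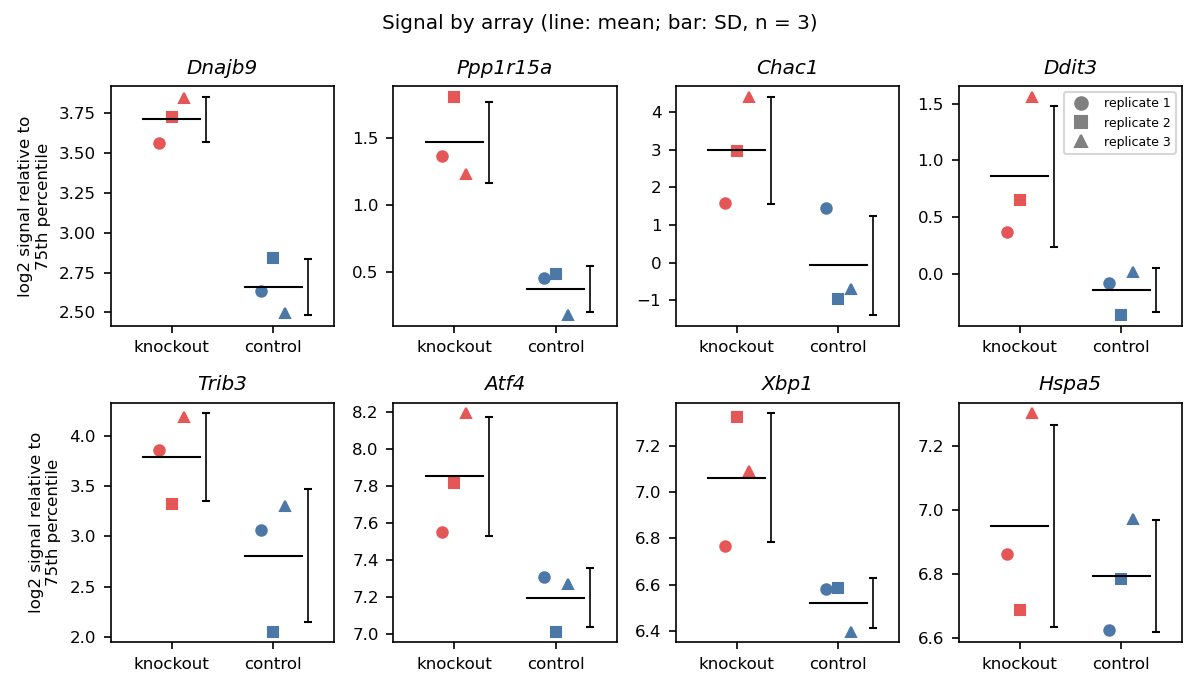
Level (log2 processed signal minus the 75th percentile of its array) for 8 of the 37 genes, knockout arrays left of control arrays, with the mean (line) and SD (bar, n = 3); marker shape gives the replicate, and each panel has its own axis, which does not start at 0. Groups are apart for 7 genes, by the least for Trib3 (3.32 in knockout 2 against 3.30 in control 3), and overlap for Hspa5.

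The slide was the one batch the file headers give: knockouts 1 and 2 and controls 1 and 2 shared slide 1, and knockout 3 and control 3 slide 2, with the scan day split the same way. The median difference over the 37 genes was 0.10 within slide 1 and 0.33 within slide 2. Dnajb9 was higher in the knockout by 0.91 within slide 1 and 1.35 within slide 2, and Ppp1r15a by 1.12 and 1.05. With the slide as a block both passed (limma adjusted p = 0.0157 and 0.0145), Ddit3 and Sec24d passed too, and none of the 37 was lower, where 9.13% of all genes were higher and 9.38% lower. On slide 1 alone neither passed (adjusted p = 0.0858 and 0.0761), and slide 2, with 1 array per group, allows no test. Xbp1 differed by 0.46 within slide 1 and 0.70 within slide 2, Atf4 by 0.52 and 0.92, Ddit3 by 0.73 and 1.54, and Eif2ak3 by -0.35 and 0.31 on its brighter probe.

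**Figure D4:**
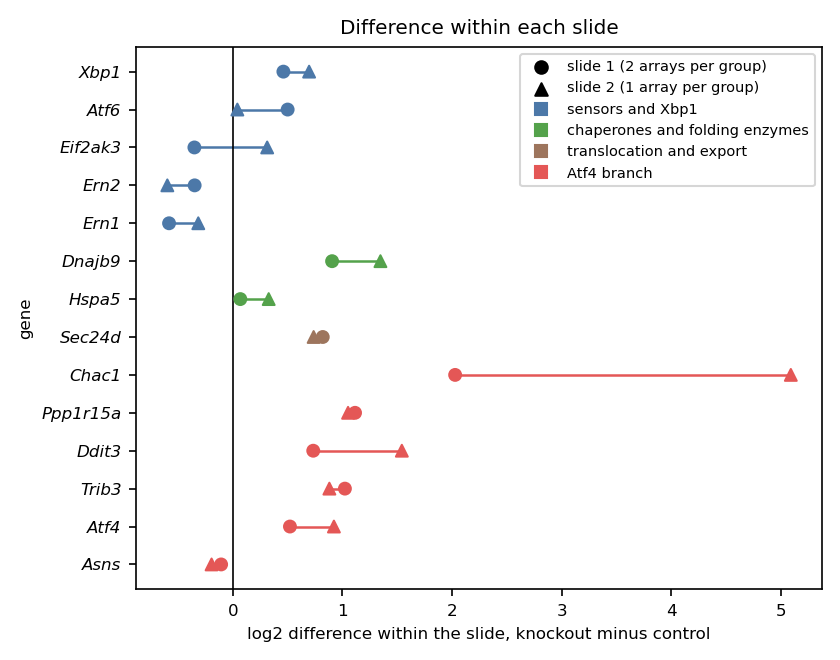
Log2 difference, knockout minus control, within slide 1 (circle, 2 arrays per group) and slide 2 (triangle, 1 array per group) for the sensors and Xbp1, the Atf4 branch, Dnajb9, Hspa5 and Sec24d, coloured by role. The marks lie on the same side of 0 for every gene shown except Eif2ak3, and they are farthest apart for Chac1 (2.03 within slide 1, 5.09 within slide 2).

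The promoters of 31 of the 37 genes were in the RefSeq table, and 4 motifs known from this response were searched on both strands. They were ERSE, the element bound by Atf6 and Xbp1 together with NF-Y (CCAAT, any 9 bases, then CCACG), ERSE-II (ATTGG, any 1 base, then CCACG), the UPRE core for Xbp1 and Atf6 (TGACGTGG), and CARE, the composite site for Atf4 with C/EBP factors (TGATGNAA). ERSE occurred in 0.119% of 32851 promoter windows and in the windows of 9 of the 31 genes. The ERSE matches are lined up here to show the element these chaperone and degradation genes share, with capitals for the fixed letters and positions counted from the annotated start.
Calr, chr8:84847075-84847093, plus strand, -162 to -144: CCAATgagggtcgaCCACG
Canx, chr11:50325800-50325818, minus strand, -145 to -127: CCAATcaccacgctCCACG
Creld2, chr15:88819520-88819538, minus strand, -126 to -108: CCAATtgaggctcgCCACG
Derl3, chr10:75893242-75893260, minus strand, -156 to -138: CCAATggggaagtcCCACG
Dnajc3, chr14:118937827-118937845, plus strand, -105 to -87: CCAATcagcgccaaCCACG
Hsp90b1, chr10:86705533-86705551, plus strand, -107 to -89: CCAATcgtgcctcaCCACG
Hsp90b1, chr10:86705638-86705656, minus strand, -212 to -194: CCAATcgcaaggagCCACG
Hspa5, chr2:34772025-34772043, plus strand, -65 to -47: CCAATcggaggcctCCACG
Pdia6, chr12:17266491-17266509, plus strand, -98 to -80: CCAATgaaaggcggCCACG
Syvn1, chr19:6046532-6046550, plus strand, -44 to -26: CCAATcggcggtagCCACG
No gene with an ERSE match passed the test, where 14.9% of all genes tested were called. Their 9 differences ran from -0.31 (Derl3) to 0.38 (Creld2) with a median of -0.05. ERSE and ERSE-II share the letters CCACG, but no member's window held both.

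CARE occurred in 3.97% of windows and in those of 4 members, which differed widely in the knockout.
Asns, chr6:7693225-7693232, minus strand, -23 to -16: TGATGaAA
Chac1, chr2:119351049-119351056, minus strand, -193 to -186: TGATGcAA
Herpud1, chr8:94386317-94386324, minus strand, -112 to -105: TGATGcAA
Trib3, chr2:152344039-152344046, plus strand, 15 to 22: TGATGtAA
The 4 differences were 3.05 for Chac1, 0.98 for Trib3, 0.14 for Herpud1 and -0.13 for Asns. ERSE-II was found in 0.0365% of windows and in those of Herpud1 and Dnajb11, and in Herpud1 it does not overlap the CARE match. The UPRE core was found in 0.676% of windows and in that of Sec24d. Like the genes with ERSE, no gene with a CARE, ERSE-II or UPRE match passed the test. A match describes letters in a window and is not evidence of binding.

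Beyond the 37 genes, 155 other pathway genes in 5 lists were followed, some of them in more than 1 list, and 142 were tested. Of these, 7 were higher and 5 lower, with a median difference of 0.05, beside the 7.28% and 7.62% of all genes. Among 25 other stress sensors and factors, 3 were higher and 2 lower. Eif2ak2 (PKR), the eIF2alpha kinase that senses double-stranded RNA, rose by 1.19 ± 0.25 (limma adjusted p = 0.0269), Atf3, a stress factor downstream of Atf4, by 1.36 ± 0.30 (adjusted p = 0.0311) and Bbc3 (Puma), a cell death gene, by 1.15 ± 0.30 (adjusted p = 0.0462; SE, n = 3 each). Atf3 differed by 1.79 within slide 1 and 0.49 within slide 2. Creb3l4, a membrane-bound factor of the Atf6 kind, fell by 1.50 ± 0.20 (adjusted p = 0.00600), and Cebpb, a partner of Atf4, fell by 0.94 ± 0.23 (adjusted p = 0.0410).

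Of 26 other Atf4 targets tested, 2 were higher and 1 lower, with a median of -0.07. Gdf15, a secreted stress hormone, was at 1.76, 0.66 and 0.75 on the knockout arrays, against -1.40, -2.34 and -2.15 on the control arrays. It rose by 3.02 ± 0.38 (SE, n = 3 each), or 8.09-fold (limma adjusted p = 0.00523), with all knockout arrays above all control arrays; Atf3, counted above, was the other. Cbs, an enzyme of cysteine synthesis, fell by 1.53 ± 0.21 (SE, n = 3 each; adjusted p = 0.00637), and 2 of 3 knockout arrays measured it well above background.

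In the remaining lists few genes passed the test. Of 27 other folding enzymes tested, 0 rose and 1 fell by limma (1 higher and 4 lower at an unadjusted p under 0.05), with a median of -0.02. The one that fell was Pdia2, an isomerase known from pancreas, by 3.27 ± 0.37 (SE, n = 3 each; limma adjusted p = 0.00350), and 2 of 3 knockout arrays had it well above background. Of 22 other degradation genes, 1 rose, the Hrd1 complex component Fam8a1, by 1.02 ± 0.18 (SE, n = 3 each; limma adjusted p = 0.0156). Of 45 other translocation and export genes, 2 rose, the channel subunit Sec61a2 by 0.99 ± 0.17 (SE, n = 3 each; limma adjusted p = 0.0155) and the coat protein Sec13 by 0.74 ± 0.15 (adjusted p = 0.0236). In that list the cargo receptor Lman1 fell by 0.79 ± 0.17 (SE, n = 3 each; adjusted p = 0.0298).

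Markers of the secretory cells of the crypt differed as well. Summed Paneth cell marker signal, in multiples of the array's 75th percentile signal, was 56.6 to 352 on the knockout arrays and 817 to 1057 on the control arrays, and 4 of its 5 measured markers fell by limma (Mmp7, Ang4, Itln1 and Habp2). Summed goblet cell marker signal was 838 to 1237 on the knockout arrays and 1745 to 1816 on the control arrays, and 4 of 10 markers fell (Clca1, Fcgbp, Zg16 and Klk1), while Muc2, the main mucin, differed by -0.06. Paneth and goblet cells hold much ER, and Ern2 belongs to the goblet lineage. The part of these markers in the values of the 37 genes was not tested.

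Plasma cells and exocrine pancreas cells are also rich in ER. Summed plasma cell marker signal was 5.58 to 7.36 on the knockout arrays and 3.58 to 4.16 on the control arrays. Most of it came from Sdc1, whose groups overlapped, and Prdm1. Prdm1 was at 0.87, 1.79 and 2.08 on the knockout arrays, against -1.84, -0.24 and -0.94 on the control arrays. Of 7 plasma cell markers with a probe, 3 were tested and 1 rose, Prdm1, by 2.59 ± 0.47 (SE, n = 3 each; limma adjusted p = 0.0175). Jchain, the joining chain of secreted antibodies, was well above background on all 6 arrays, at -1.56, -2.07 and -0.98 on the knockout arrays and -1.82, -2.30 and -4.09 on the control arrays, a difference of 1.20 ± 0.60 (SE, n = 3 each; limma adjusted p = 0.203). Sdc1 differed by -0.13, Pou2af1 was well above background on 1 control array, and Mzb1, Tnfrsf17 and Irf4 were so on no array. Summed exocrine pancreas signal was 7.67 to 11.2 on the knockout arrays and 9.66 to 16.0 on the control arrays, most of it from Cela1, which differed by -0.06. Over the 8 tested pancreas markers the median difference was -1.51, with -0.44 within slide 1 and -3.03 within slide 2. Of the 8 differences 7 were negative, but 1 passed the test (Cpa1, well above background on no knockout array). Epithelial markers showed the labelled tissue on every array, with sums of 960 to 1490 on the knockout arrays and 901 to 1195 on the control arrays and 1 of 6 lower (Cdx1). Crypt markers were present, summing to 8.38 to 18.4 on the knockout arrays and 26.0 to 38.3 on the control arrays, with 1 of 3 lower (Ascl2). Fibroblast markers were well above background on no array for 4 of 5 genes and endothelial markers for 2 of 3. The part of each of these markers in the values above was not tested.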

How the data were processed

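RNA from isolated crypts of 3 knockout and 3 control samples was put on 1 one-colour (Cy3) Agilent array each, per the labels. The authors deposited spot intensity from Agilent Feature Extraction (12.0.3.1 per the file headers, 11.5.1.1 per the submitters' processing notes), already background-subtracted within the array. The flags for background, outlier and saturated spots are values of the same software, per the file headers. A series table deposited by the authors gives log2 values; set against the scanner values, it used the 75th percentile scale too and had been centred probe by probe on the median of all arrays. Its columns had medians of -0.0717, 0.216 and -0.184 for knockouts 1 to 3 and 0.196, 0.0610 and -0.325 for controls 1 to 3, and it served as an alternative.

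Control and outlier spots were left out, spots of a probe averaged, and the log2 signal taken minus each array's 75th percentile, a signal of 292, 206 and 205 on knockouts 1 to 3 and 295, 279 and 290 on controls 1 to 3. No saturated spot was found. Precision is limited by the number of arrays. Names came by accession through a RefSeq gene table of GRCm38.p6 (33767 of 56605 named). A probe was kept if 3 or more of the 6 arrays had it well above background, and the brightest per gene was used. Of 62 probes of the 37 genes 61 were kept, 20 genes had several, and the kept probes of Eif2ak3 and Sec61a1 differed in sign. Coordinates are given only for RefSeq promoters, because those of the array refer to a different build.

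The fit was limma 3.58.1 (R 4.3.3) with 1 term for the group, moderated by eBayes, with Benjamini-Hochberg adjustment, and it was tested on simulated data. The members, the 5 role groups, the 5 lists of other pathway genes and the marker lists were chosen with earlier results of these data known. The names given are all 37 members, Arid1a, up to 3 called genes with the smallest p per pathway list and direction, and leading or called markers; called or absent markers were named after their values were seen. Alternatives were the replicate number, slide or sex as a block, slide 1 alone, other scalings, the background correction (normexp, offset 50, on median spot and background signals), the filter on dim probes, the probe choice, array weights, the variance model, the series table, the labels, the thresholds and each array left out. Sex was read from Xist and Y-linked genes on the arrays: knockouts 1 and 3 and control 1 were male, knockout 2 and controls 2 and 3 female, so each group holds both sexes in unequal numbers.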

Additional observations from a re-analysis of the deposited data

How the results depend on the processing

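The design has 3 arrays per group, of which 2 in all have contradicting labels. Over the 22 tested alternatives Dnajb9 passed an adjusted p under 0.05 by limma in 17 and Ppp1r15a in 13, and both were positive in all of them. The limma adjusted p ran from 0.00384 to 0.999 for Dnajb9 and from 0.00485 to 0.999 for Ppp1r15a. Both values of 0.999 came with groups from source name and genotype. In that setting the differences were only 0.23 for Dnajb9 and 0.0090 for Ppp1r15a, so the positive sign says little there. The next highest limma adjusted p-values were 0.146 and 0.156, without both arrays with contradicting labels. Chac1 passed in 6 and Ddit3 in 4. Leaving out arrays lowers the number of samples, and dropping the filter raises the number of genes tested; for the other changes the cause was not tested.

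In the count of the 37 genes called higher, 2 in the fit reported, the value was 4 with the slide as a block, beside 9.13% of all genes. With array weights it was 7 (and 2 lower), where 16.4% of all genes were higher and 18.9% lower. At an adjusted p under 0.1 it was 7 (and 1 lower), where 12.2% of all genes were higher and 13.3% lower. It was 0 with limma on slide 1 alone (4 higher and 1 lower at an unadjusted p under 0.05), without the filter on dim probes (7 and 0), without both arrays with contradicting labels (4 and 0), with groups from source name and genotype (0 and 1), and at an adjusted p under 0.01. In those settings, in that order, 2.36%, 1.56%, 1.31%, 0% and 2.14% of all genes were higher. With single arrays left out the count called higher ran from 0 (without control 1) to 6 (without knockout 1). Without control 1, 6 were higher at an unadjusted p under 0.05. Of all genes, 2.61% were called higher without control 1 and 12.6% without knockout 1. The count of the 37 called lower was 0 with each single array left out. The replicate number as a block gave 5 called higher (Dnajb9, Ppp1r15a, Ddit3, Trib3 and Sec24d), where 9.85% of all genes were higher and 10.4% lower. The deviations of same-numbered arrays correlated at 0.246, 0.0792 and 0.353, so the numbers are not taken to pair the samples, although each array correlated best with its own number.

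Of all genes, 2011 were called in the fit reported, 689 on slide 1 alone, 697 without the filter, 4766 with array weights, 320 without both arrays with contradicting labels, 1339 with sex as a block, 513 at an adjusted p under 0.01, 3445 under 0.1, and 638 (without control 1) to 4023 (without knockout 1) with single arrays left out. With groups from source name and genotype limma called 0, with 207 at an unadjusted p under 0.05.

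Some differences changed sign; none of these genes passed the test in the fit reported or in the setting where the sign changed, though Ern1 and Xbp1, which changed sign with groups from source name and genotype, passed with array weights (adjusted p = 0.0409 and 0.0203). On slide 1 alone Pdia4 was at 1.2e-05, Herpud1 at -0.020 and Sec61a1 at 0.065. With arrays scaled to their median Hspa5 was at -0.093, Calr -0.15, Pdia3 -0.12, Herpud1 -0.11, Sel1l -0.10, Edem1 -0.034, Derl1 -0.028 and Sec61b -0.065. With the mean of a gene's probes Eif2ak3 was at 0.33 and Sec61a1 at 0.091, and with array weights Asns was at 0.066. Without both arrays with contradicting labels Eif2ak3 was at 0.26, Hsp90b1 0.11, Pdia4 0.28 and Sdf2l1 0.20. With groups from source name and genotype Ern1 was at 0.13, Eif2ak3 0.48, Atf6 -0.019, Xbp1 -0.078, Hsp90b1 0.19, Canx 0.096, Pdia4 0.51, Sdf2l1 0.30, Herpud1 -0.12, Derl1 -0.0033, Ssr1 0.016 and Sec61a1 0.015. With single arrays left out the ranges were -0.47 to 0.14 for Eif2ak3, -0.020 to 0.29 for Hspa5, -0.13 to 0.037 for Hsp90b1, -0.42 to 0.16 for Pdia4, -0.14 to 0.15 for Sdf2l1, -0.065 to 0.51 for Herpud1, -0.018 to 0.31 for Sel1l, -0.082 to 0.41 for Edem1, -0.39 to 0.047 for Asns and -0.12 to 0.069 for Sec61a1.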

Other observations

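Summed enterocyte marker signal, in multiples of the array's 75th percentile signal, was 1901 to 3763 on the knockout arrays and 2236 to 2763 on the control arrays, with 0 of 6 markers called by limma (1 higher and 1 lower at an unadjusted p under 0.05). Enteroendocrine markers summed to 80.4 to 126 on the knockout arrays and 116 to 142 on the control arrays, with 0 of 5 called (0 and 1). All 5 enteroendocrine differences were negative, the lowest that of Chga, a granule protein, at -0.79 ± 0.24 (SE, n = 3 each; limma adjusted p = 0.0745). Tuft cell markers summed to 0.977 to 1.12 on the knockout arrays and 0.750 to 1.22 on the control arrays, with 0 of 2 tested markers called (0 and 1). T cell markers summed to 46.8 to 122 on the knockout arrays and 34.7 to 122 on the control arrays, with 5 of 6 positive and 1 called higher (Thy1, by 1.92 ± 0.37; SE, n = 3 each; limma adjusted p = 0.0210). Macrophage markers summed to 2.49 to 2.77 on the knockout arrays and 3.79 to 8.43 on the control arrays. Most of the sum on the control arrays came from Lyz2. Of 3 tested, Lyz2 fell by 3.43 ± 0.76 (SE, n = 3 each; limma adjusted p = 0.0311) and Cd68 rose by 0.87 ± 0.16 (adjusted p = 0.0191). The third, Csf1r, differed by 0.27 (limma adjusted p = 0.374).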
